A study of Mus musculus with 27 samples.

Results

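Within the neuroendocrine prostate tumours of a mouse cross, those with low Pcsk1 mRNA were set against those that expressed it. The split was made on the array values themselves: tumours with Syp of at least 6.5 and Pkd1l3 of at most 7 on the log2 scale were kept, and Pcsk1 below 6 placed a tumour in the Pcsk1-low group (5 tumours) while Pcsk1 of 7 or more placed it in the Pcsk1-expressing group (14 tumours). These 19 tumours were taken from 27 in all. Of the other 8, 1 had Pcsk1 between the thresholds, 3 had Pkd1l3 above 7 and 4 had Syp below 6.5. All 27 were prostate tumours, snap frozen, of F2 males that carried the transgene, bred from a cross of C57BL/6-Tg(TRAMP)8247Ng/J with PWK/PhJ, scored at 30 weeks of age or at a humane endpoint. Both groups therefore share the transgene, the cross and the tissue, and the labels themselves give no Pcsk1 status, treatment or batch.

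The TRAMP transgene expresses SV40 T antigens from the probasin promoter, which is active in prostate epithelium, and it can give rise to neuroendocrine tumours. PWK/PhJ is a wild-derived inbred strain, so each F2 animal carries its own mixture of alleles, which was not known for these animals. Each tumour bears a different animal number and was hybridised to 1 array, so the spread within a group is a spread between animals. RNA came from whole tumour pieces, in which fewer cells of a type and less RNA per cell cannot be told apart.

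Pcsk1 encodes prohormone convertase 1, an endoprotease of dense-core vesicles that cuts peptide precursors at pairs of basic residues. After the cut, carboxypeptidase E removes the basic residues and peptidylglycine alpha-amidating monooxygenase amidates the new end. The granins, among them secretogranin II encoded by Scg2, are cargo of the same vesicles. Glra2 encodes an alpha subunit of the glycine-gated chloride channel and is not part of the peptide pathway. Expression of Pcsk1 can be driven by cyclic AMP through CREB, which binds cAMP response elements.

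The sequences upstream of Pcsk1, Scg2 and Glra2 are shown because these 3 genes were named with the split and the first 2 carry a cAMP response element. They are the 250 bases before the annotated start in RefSeq on GRCm38.p6, written 5′ to 3′ on the strand of the gene, at chr13:75089607-75089856 for Pcsk1 (plus strand), chr1:79440027-79440276 for Scg2 (minus strand) and chrX:165327394-165327643 for Glra2 (minus strand). Capitals mark the palindromic full element TGACGTCA and the short element TGACG, searched on both strands, and each full element holds a short element on either strand.
Pcsk1: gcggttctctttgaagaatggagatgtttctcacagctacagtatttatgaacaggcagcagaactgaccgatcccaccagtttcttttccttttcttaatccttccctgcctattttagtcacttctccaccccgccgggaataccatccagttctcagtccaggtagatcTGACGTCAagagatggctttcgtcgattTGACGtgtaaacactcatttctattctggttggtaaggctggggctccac
Scg2: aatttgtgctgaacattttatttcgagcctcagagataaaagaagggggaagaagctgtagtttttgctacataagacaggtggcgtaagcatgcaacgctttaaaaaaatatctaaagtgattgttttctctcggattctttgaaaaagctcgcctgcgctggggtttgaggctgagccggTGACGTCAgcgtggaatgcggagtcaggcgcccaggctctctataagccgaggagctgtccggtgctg
Glra2: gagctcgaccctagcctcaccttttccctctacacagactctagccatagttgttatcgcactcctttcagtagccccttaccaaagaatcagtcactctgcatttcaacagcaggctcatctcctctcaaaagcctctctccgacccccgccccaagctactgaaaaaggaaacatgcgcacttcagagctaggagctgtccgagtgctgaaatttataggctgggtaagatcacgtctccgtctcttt
Pcsk1 had a full element beginning 78 bases before the start and a separate short element beginning 50 bases before it. Scg2 had a full element beginning 68 bases before the start, and neither form was found in the Glra2 window. Of 32851 such windows, 508 (1.55%) held the full element and 5836 (17.8%) held the short element. The reference genome is that of C57BL/6J, so it does not show the PWK/PhJ alleles that some tumours carry.

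Pcsk1 was 4.99 in P235, 4.99 in P237, 5.15 in P311, 5.24 in P509 and 5.89 in P1394, the Pcsk1-low tumours, against a lowest, median and highest value of 7.003, 8.12 and 9.18 in the Pcsk1-expressing tumours. These levels made the groups, so their gap is a description. P1394 at 5.89 was just inside the lower threshold, P1225 at 6.61 fell between the thresholds, and P902 at 7.003 and P1218 at 7.09 were just inside the upper one. The median of all rows on the arrays was 5.75, so 4 of the 5 Pcsk1-low tumours stood below it. Syp, the synaptophysin gene that marks neuroendocrine cells, was 7.86 to 8.62 in Pcsk1-low tumours and 7.47 to 8.74 in Pcsk1-expressing tumours. Pkd1l3 was 4.85 to 5.17 in Pcsk1-low and 4.78 to 5.59 in Pcsk1-expressing tumours.

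Scg2 was 8.32 in P235, 8.85 in P237, 8.03 in P311, 7.20 in P509 and 8.06 in P1394, against a lowest, median and highest value of 6.79, 9.16 and 11.34 in Pcsk1-expressing tumours. All 5 Pcsk1-low tumours were below the Pcsk1-expressing median, but the ranges overlapped: 2 Pcsk1-expressing tumours were lower than every Pcsk1-low tumour and 8 were higher than every one. Glra2 did not follow the split. It was 10.62 in P235 and 9.65 in P237 but 5.13 in P311, 5.05 in P509 and 5.25 in P1394, against 5.32, 7.55 and 10.26 as the lowest, median and highest value in Pcsk1-expressing tumours. The Pcsk1-low tumours thus held both the highest Glra2 level of the 19 tumours and the 3 lowest. Scg2 and Glra2 were named together with the split, so no test of either is given on its own. Both were among the 22177 genes of the fit below, and Scg2 was also counted with the granin genes.

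**Figure D1:**
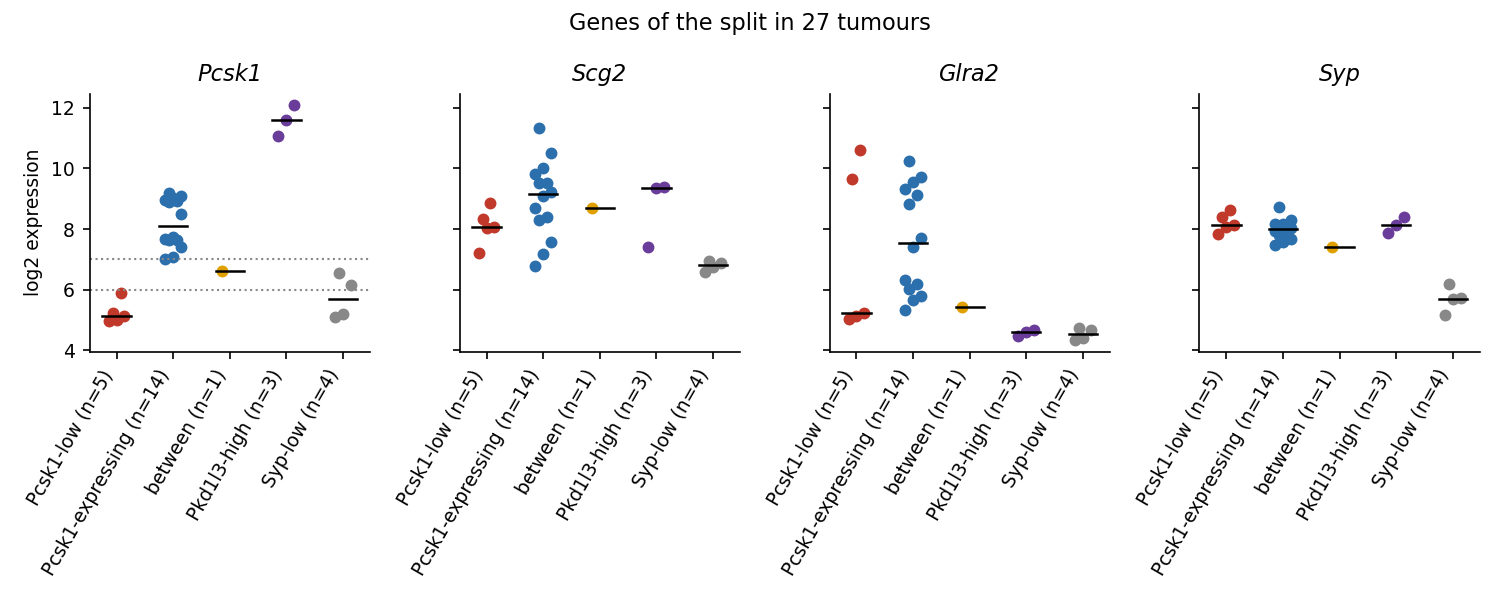
Log2 expression of Pcsk1, Scg2, Glra2 and Syp (y axis) in all 27 tumours, grouped by the thresholds (x axis). Points are tumours, black bars are group medians, and dotted lines mark the Pcsk1 thresholds of 6 and 7. Pcsk1 separates the first 2 groups because it made them, Scg2 overlaps between them, and Glra2 forms a high pair and a low trio within the 5 Pcsk1-low tumours.

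Across 22177 genes other than Pcsk1, Syp and Pkd1l3, no gene passed the test between Pcsk1-low and Pcsk1-expressing tumours. The fit was limma with an intensity trend and Benjamini-Hochberg adjustment, at an adjusted p of 0.05. It called 0 genes higher (0%) and 0 lower (0%) in Pcsk1-low tumours, and the smallest adjusted p was 0.529. At an unadjusted p under 0.05 there were 778 higher genes (3.51%) and 381 lower genes (1.72%), 1159 together (5.23%). The median standard error of a difference was 0.13 log2 units. The difference was 1 log2 unit or more in 33 genes toward Pcsk1-low (0.149%) and in 37 genes toward Pcsk1-expressing tumours (0.167%).

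Over all genes, Pcsk1-low tumours resembled each other about as much as they resembled Pcsk1-expressing tumours. The median Pearson correlation over genes was 0.973 between 2 Pcsk1-low tumours (10 pairs), 0.970 between a Pcsk1-low and a Pcsk1-expressing tumour (70 pairs) and 0.970 between 2 Pcsk1-expressing tumours (91 pairs). For each of the 5 Pcsk1-low tumours the most similar array was that of a Pcsk1-expressing tumour: P502 for P235, P233 for P237, P1218 for P311 and P1394, and P757 for P509. Most possible matches were Pcsk1-expressing, as were 14 of the 19 tumours. In the other direction, the most similar array was P237 for P217, P233, P500 and P619, and P1394 for P1218. The remaining Pcsk1-expressing tumours were each most similar to another Pcsk1-expressing tumour. P219 and P268 stood apart by skeletal muscle genes: Myh4, a fast muscle myosin, was 8.22 in P219 and 8.15 in P268 and at most 5.30 in the other 17 tumours. Without P219 and P268, the test again called 0 genes in either direction by limma, with 1247 at an unadjusted p under 0.05.

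**Figure D2:**
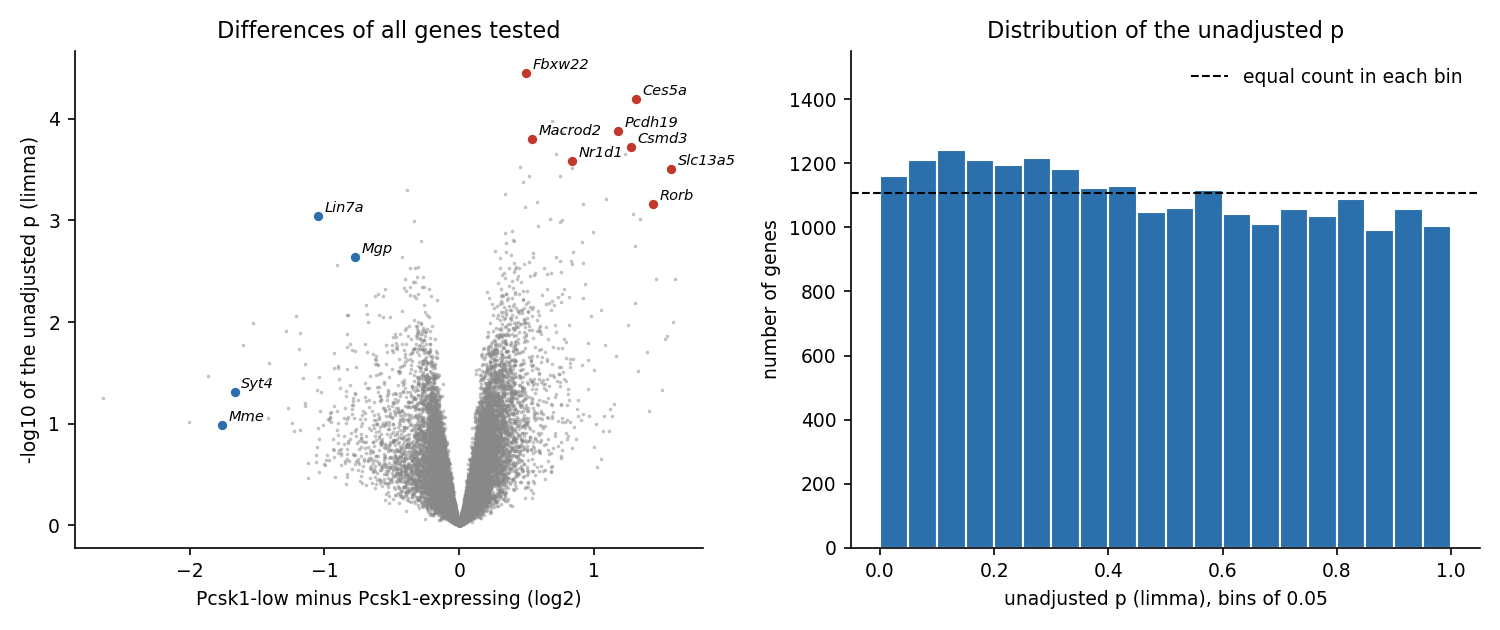
Left, the difference of each of 22177 genes in log2 units, Pcsk1-low minus Pcsk1-expressing (x axis), against -log10 of its unadjusted limma p (y axis). Right, the number of genes (y axis) per bin of the unadjusted p (x axis), with a dashed line at an equal count in each bin. Named genes are coloured by direction, none passes after adjustment, and the first bin with 1159 genes is not taller than several of its neighbours.

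The 15 genes of smallest p toward Pcsk1-low tumours had adjusted p-values of 0.529 to 0.682, and none passed. In 3 genes the groups did not overlap (0.0135% of genes), all toward Pcsk1-low tumours. Among 22177 genes a few can separate groups of 5 and 14 tumours by chance, so these 3 are a description. Macrod2, which encodes a mono-ADP-ribosylhydrolase, was 6.98 in P235, 7.21 in P237, 7.39 in P311, 7.13 in P509 and 7.07 in P1394 (all Pcsk1-low), against a lowest, median and highest value of 6.14, 6.70 and 6.90 in Pcsk1-expressing tumours. Baz2b, which encodes a bromodomain protein, was 8.76 in P235, 8.77 in P237, 8.91 in P311, 9.14 in P509 and 8.74 in P1394 (all Pcsk1-low), against a lowest, median and highest value of 7.98, 8.38 and 8.67 in Pcsk1-expressing tumours. Fbxw22, an F-box gene with a level below the median of all rows, was 3.55 to 4.16 in Pcsk1-low and 3.08 to 3.54 in Pcsk1-expressing tumours. The differences were 0.54 ± 0.12 for Macrod2, 0.48 ± 0.11 for Baz2b and 0.50 ± 0.09 for Fbxw22 (log2 ± SE, adjusted p = 0.529 for Macrod2 and Fbxw22 and 0.579 for Baz2b).

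Larger differences with overlapping groups were seen in Slc13a5, the plasma membrane citrate transporter. It was 8.31 in P235, 7.65 in P237, 7.40 in P311, 8.10 in P509 and 8.83 in P1394 (all Pcsk1-low), against a lowest, median and highest value of 5.40, 6.41 and 7.84 in Pcsk1-expressing tumours, a difference of 1.57 ± 0.36. Ces5a, a carboxylesterase gene, was 6.09 in P235, 5.995 in P237, 7.92 in P311, 6.997 in P509 and 6.78 in P1394 (all Pcsk1-low), against a lowest, median and highest value of 4.81, 5.34 and 6.45 in Pcsk1-expressing tumours, a difference of 1.31 ± 0.26. In each of these genes 3 of the 5 Pcsk1-low tumours stood above every Pcsk1-expressing tumour. Csmd3, a large transmembrane gene with CUB and sushi domains, was 8.95 in P235, 8.33 in P237, 9.20 in P311, 8.78 in P509 and 8.93 in P1394 (all Pcsk1-low), against a lowest, median and highest value of 6.83, 7.51 and 8.91 in Pcsk1-expressing tumours. Pcdh19, a delta-protocadherin of neurons, was 6.84 in P235, 7.65 in P237, 7.73 in P311, 6.95 in P509 and 6.51 in P1394 (all Pcsk1-low), against a lowest, median and highest value of 5.27, 5.98 and 6.84 in Pcsk1-expressing tumours. The differences were 1.28 ± 0.28 for Csmd3 and 1.18 ± 0.25 for Pcdh19, all 4 with an adjusted p of 0.529. Esrrg, an orphan nuclear receptor whose gene lies on chromosome 1, was 7.81 to 8.81 in Pcsk1-low and 6.81 to 8.45 in Pcsk1-expressing tumours. The remaining genes of smallest p toward Pcsk1-low tumours were Efhc2, Adam25, Olfr172, Cpa6, Dbp, Nr1d1 and Arntl, and the last 3 are described with the clock genes. Adam25, Olfr172 and Cpa6 had levels below the median of all rows.

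Toward Pcsk1-expressing tumours the 15 genes of smallest p had adjusted p-values of 0.766 to 0.915. Lin7a, a scaffold of neuronal and epithelial junctions, was 7.08 in P235, 7.47 in P237, 6.47 in P311, 6.51 in P509 and 6.41 in P1394 (all Pcsk1-low), against a lowest, median and highest value of 6.53, 7.90 and 8.44 in Pcsk1-expressing tumours, a difference of -1.04 ± 0.27. P311, P509 and P1394 were below every Pcsk1-expressing tumour. Ulbp1, a ligand of the NK cell receptor NKG2D, was 8.31 in P235, 8.74 in P237, 8.29 in P311, 6.71 in P509 and 6.90 in P1394 (all Pcsk1-low), against a lowest, median and highest value of 8.17, 8.68 and 9.33 in Pcsk1-expressing tumours, a difference of -0.91 ± 0.27, with P509 and P1394 below every Pcsk1-expressing tumour. Mgp, an inhibitor of calcification that stromal cells make, was 9.48 in P235, 8.68 in P237, 8.53 in P311, 8.32 in P509 and 8.17 in P1394 (all Pcsk1-low) and 8.69 to 10.32 in Pcsk1-expressing tumours. The others were Asb9, Slc13a4, Dlx2, Chrne, Krtap19-1, Tceal5, Avpr1a, Rhbg, Fpr-rs3, Rubie, Mir200b and Olfr1494, whose differences were between -0.42 and -0.27 log2 units. Apart from Slc13a4, Dlx2 and Mir200b, these genes had a mean below the median of all rows in both groups.

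Of 13 measured genes of prohormone processing besides Pcsk1, 0 passed the test and 0 had an unadjusted p under 0.05, against 5.23% of all genes; their median difference was -0.07, against 0.01 over all genes. Cpe, the carboxypeptidase, was 10.79 in P235, 11.03 in P237, 10.99 in P311, 10.51 in P509 and 10.44 in P1394 (all Pcsk1-low), against a lowest, median and highest value of 10.02, 10.64 and 10.999 in Pcsk1-expressing tumours, a difference of 0.14 ± 0.15 with a 95% interval of -0.16 to 0.45. Pam, the amidating enzyme, was 9.38 to 9.72 in Pcsk1-low and 8.80 to 10.26 in Pcsk1-expressing tumours, with an interval of -0.53 to 0.33 for the difference. Qpct, which forms the pyroglutamyl end of some peptides, was 8.75 in P235, 8.91 in P237, 8.22 in P311, 6.65 in P509 and 7.95 in P1394 (all Pcsk1-low), against a lowest, median and highest value of 6.25, 7.46 and 8.30 in Pcsk1-expressing tumours, a difference of 0.72 ± 0.35 (adjusted p = 0.915). Of the convertases, Furin was 7.30 to 7.86 in Pcsk1-low and 7.33 to 8.39 in Pcsk1-expressing tumours, and Pcsk6 was 8.05 to 8.50 in Pcsk1-low and 7.44 to 8.45 in Pcsk1-expressing tumours. The binding proteins overlapped between the groups: Scg5, the chaperone of convertase 2, was 8.67 to 9.20 in Pcsk1-low and 7.73 to 9.21 in Pcsk1-expressing tumours, and Pcsk1n, the precursor of an inhibitor of convertase 1, was 7.95 to 8.76 in Pcsk1-low and 7.82 to 9.25 in Pcsk1-expressing tumours. Ctsl, a cysteine protease that also cuts some peptide precursors, was 9.81 to 10.19 in Pcsk1-low and 9.53 to 10.75 in Pcsk1-expressing tumours. Cpe, Pam, Furin and Pcsk1n were picked for their roles after their values were seen. Pcsk2, the other main neuroendocrine convertase, was not analysed here.

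Of 19 granin and dense-core vesicle genes, 0 passed, and 1 higher and 1 lower had an unadjusted p under 0.05, against 5.23% of all genes. Their median difference was -0.08. Chga, chromogranin A, was 9.69 in P235, 10.36 in P237, 10.28 in P311, 10.21 in P509 and 10.19 in P1394 (all Pcsk1-low), against a lowest, median and highest value of 8.70, 10.03 and 10.56 in Pcsk1-expressing tumours, a difference of 0.19 ± 0.21. Chgb, chromogranin B, was 7.92 to 9.61 in Pcsk1-low and 8.14 to 10.08 in Pcsk1-expressing tumours, and Scg3, which sorts granins into vesicles, was 9.23 to 10.10 in Pcsk1-low and 8.94 to 9.94 in Pcsk1-expressing tumours. These 2 genes and Chga were picked after their values were seen. Syt4, a synaptotagmin of dense-core vesicles, was 5.80 in P235, 5.78 in P237, 4.72 in P311, 4.61 in P509 and 5.005 in P1394 (all Pcsk1-low), against a lowest, median and highest value of 4.78, 6.13 and 9.82 in Pcsk1-expressing tumours, a difference of -1.66 ± 0.80 (adjusted p = 0.915). All 5 Pcsk1-low tumours were below the Pcsk1-expressing median, and 7 of 14 Pcsk1-expressing tumours were above all of them. Cadps, which primes dense-core vesicles for release, was 9.72 in P235, 9.96 in P237, 9.9997 in P311, 9.12 in P509 and 10.03 in P1394 (all Pcsk1-low), against a lowest, median and highest value of 8.48, 9.30 and 9.91 in Pcsk1-expressing tumours, a difference of 0.44 ± 0.19 (adjusted p = 0.915). Resp18, an endocrine secretory protein, was 6.71 to 8.18 in Pcsk1-low and 6.29 to 9.99 in Pcsk1-expressing tumours.

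The possible substrates were compared in 33 peptide precursor genes, of which 0 passed. Among these genes 0 higher and 1 lower had an unadjusted p under 0.05, against 5.23% of all genes. A difference above 0 was found in 9 of the 33, against 53.4% of all genes, and one below 0 in 24 (median -0.07). Nmu, the neuromedin U precursor, was 9.99 in P235, 10.81 in P237, 9.53 in P311, 11.77 in P509 and 11.14 in P1394 (all Pcsk1-low), against a lowest, median and highest value of 6.28, 10.01 and 11.53 in Pcsk1-expressing tumours, a difference of 0.75 ± 0.59. Gal, the galanin precursor, was 5.64 in P235, 5.39 in P237, 5.23 in P311, 7.48 in P509 and 5.83 in P1394 (all Pcsk1-low) and 5.45 to 9.15 in Pcsk1-expressing tumours. Nts, the neurotensin precursor, was 3.39 to 4.39 in Pcsk1-low and 3.48 to 8.87 in Pcsk1-expressing tumours, and Npy, the neuropeptide Y precursor, was 5.23 to 5.61 in Pcsk1-low and 5.26 to 7.96 in Pcsk1-expressing tumours. Of 35 peptide hormone receptors (median difference -0.13), 0 passed and 1 had an unadjusted p under 0.05, against 5.23% of all genes. That receptor was Sstr4, a somatostatin receptor, which was 6.04 in P235, 6.36 in P237, 5.75 in P311, 6.06 in P509 and 5.99 in P1394 (all Pcsk1-low), against a lowest, median and highest value of 6.09, 6.61 and 7.95 in Pcsk1-expressing tumours, a difference of -0.69 ± 0.23 (adjusted p = 0.915). Calcr, the calcitonin receptor, was 5.09 in P235, 6.65 in P237, 7.61 in P311, 7.19 in P509 and 12.03 in P1394 (all Pcsk1-low) and 5.06 to 11.74 in Pcsk1-expressing tumours, so the spread within each group covered nearly the whole range. Calca, whose peptide binds it, was not analysed here.

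Of 45 neuroendocrine lineage transcription factors (median difference -0.01), 0 passed and 2 had an unadjusted p under 0.05, against 5.23% of all genes. Both were higher. Those 2, named after their values were seen, were Prox1 and Pax6. Prox1, a homeobox factor of endocrine and neural progenitors, was 10.59 in P235, 10.26 in P237, 10.18 in P311, 9.93 in P509 and 10.84 in P1394 (all Pcsk1-low), against a lowest, median and highest value of 9.50, 9.92 and 10.41 in Pcsk1-expressing tumours, a difference of 0.42 ± 0.15 (adjusted p = 0.915). Insm1, a zinc finger factor of neuroendocrine cells also chosen after the values were seen, was 7.90 to 9.19 in Pcsk1-low and 7.73 to 9.35 in Pcsk1-expressing tumours. Pou4f1, a sensory neuron factor, was 9.26 in P235, 6.48 in P237, 6.06 in P311, 6.002 in P509 and 5.74 in P1394 (all Pcsk1-low) and 5.22 to 10.58 in Pcsk1-expressing tumours. Neurod4, a proneural factor, was 6.57 in P235, 7.82 in P237, 9.71 in P311, 9.63 in P509 and 9.74 in P1394 (all Pcsk1-low) and 5.37 to 10.37 in Pcsk1-expressing tumours. Ebf1 was 5.18 to 7.45 in Pcsk1-low and 5.44 to 10.35 in Pcsk1-expressing tumours, whose median was 6.43. Nhlh2, which in mouse hypothalamus acts on the Pcsk1 promoter, was 4.27 to 4.96 in Pcsk1-low and 4.25 to 9.29 in Pcsk1-expressing tumours, whose median was 4.90. The highest value of both genes was that of P474, and the next highest Nhlh2 value was 6.12 in P912. The difference in Nhlh2 was -0.62 ± 0.54 (adjusted p = 0.915).

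**Figure D3:**
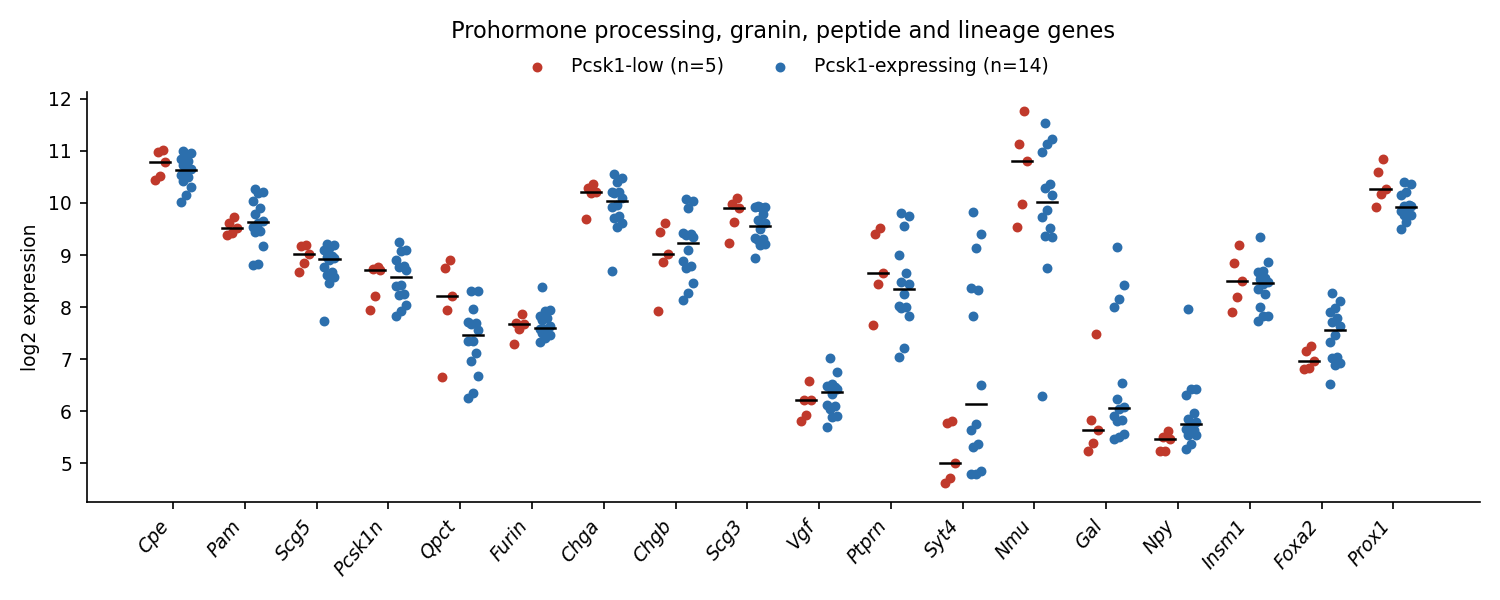
Log2 expression (y axis) of 18 genes of prohormone processing, granins, peptide precursors and lineage factors (x axis) in the 5 Pcsk1-low tumours (red, left) and the 14 Pcsk1-expressing tumours (blue, right). Points are tumours and black bars are medians. The groups overlap for every gene shown, and Syt4 has the widest gap between group medians toward Pcsk1-expressing tumours among the granin genes plotted.

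Genes of synaptic vesicles and exocytosis had mostly positive differences, and none passed the test. Of 37 measured, 31 had a difference above 0, against 53.4% of all genes, with a median difference of 0.22, against 0.01. Of the 37, 6 had an unadjusted p under 0.05, all higher, against 3.51% higher among all genes. Syt2, a fast calcium sensor of release, was 8.42 in P235, 8.04 in P237, 7.90 in P311, 7.96 in P509 and 8.70 in P1394 (all Pcsk1-low), against a lowest, median and highest value of 6.66, 7.41 and 8.36 in Pcsk1-expressing tumours, a difference of 0.75 ± 0.22 (adjusted p = 0.915). Cplx1, a complexin, was 8.96 to 10.08 in Pcsk1-low and 8.45 to 9.78 in Pcsk1-expressing tumours, a difference of 0.53 ± 0.22. Pclo, an active zone scaffold, was 6.12 to 7.38 in Pcsk1-low and 5.19 to 7.36 in Pcsk1-expressing tumours. Sv2c, a vesicle glycoprotein, was 5.08 to 6.06 in Pcsk1-low and 4.82 to 9.94 in Pcsk1-expressing tumours. The summed level of the list was -0.09 to 0.24 in Pcsk1-low and -0.43 to 0.37 in Pcsk1-expressing tumours, so the groups overlapped.

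Ion channels were mixed. Of 35 ligand-gated subunits, 0 passed, and 2 higher and 1 lower had an unadjusted p under 0.05, against 5.23% of all genes. Their median difference was 0.01. Chrna4, a nicotinic receptor subunit, was 9.25 in P235, 9.82 in P237, 8.80 in P311, 8.93 in P509 and 8.41 in P1394 (all Pcsk1-low), against a lowest, median and highest value of 6.74, 7.61 and 9.34 in Pcsk1-expressing tumours, a difference of 1.29 ± 0.33 (adjusted p = 0.766). Gria1, an AMPA receptor subunit, was 4.91 to 5.20 in Pcsk1-low and 4.90 to 7.05 in Pcsk1-expressing tumours, a difference of -0.81 ± 0.31. Gria3, another AMPA subunit, was highest in the same pair of Pcsk1-low tumours as Glra2, with 8.71 in P235, 8.71 in P237, 7.13 in P311, 6.56 in P509 and 6.45 in P1394 (all Pcsk1-low) and 5.52 to 7.93 in Pcsk1-expressing tumours. Of 35 voltage-gated channels, 0 passed, 4 higher and 1 lower had an unadjusted p under 0.05, against 5.23% of all genes, and the median difference was 0.11, against 0.01 over all genes. Cacna1d, an L-type calcium channel, was 8.21 to 9.54 in Pcsk1-low and 7.36 to 8.79 in Pcsk1-expressing tumours, a difference of 0.65 ± 0.21. Scn2a, a sodium channel, was 7.78 to 9.21 in Pcsk1-low and 6.73 to 8.74 in Pcsk1-expressing tumours, a difference of 0.67 ± 0.29. Cacnb2, a calcium channel beta subunit, was 5.53 to 6.81 in Pcsk1-low and 5.73 to 8.41 in Pcsk1-expressing tumours, a difference of -0.77 ± 0.31.

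Of 47 neural adhesion and axon guidance genes, 0 passed, 2 higher and 3 lower had an unadjusted p under 0.05, against 5.23% of all genes, and the median difference was 0.20, against 0.01 over all genes. Dscam, a homophilic adhesion molecule, was 5.37 in P235, 5.50 in P237, 5.58 in P311, 5.08 in P509 and 6.70 in P1394 (all Pcsk1-low), against a lowest, median and highest value of 5.21, 6.90 and 8.93 in Pcsk1-expressing tumours, a difference of -1.28 ± 0.47 (adjusted p = 0.915). Cntn4, a contactin, was 7.12 in P235, 6.27 in P237, 7.14 in P311, 8.02 in P509 and 8.06 in P1394 (all Pcsk1-low), against a lowest, median and highest value of 5.14, 6.33 and 7.33 in Pcsk1-expressing tumours, a difference of 1.05 ± 0.36 (adjusted p = 0.915). Chl1, a relative of L1, was 8.25 in P235, 6.59 in P237, 5.10 in P311, 4.32 in P509 and 4.83 in P1394 (all Pcsk1-low) and 5.09 to 9.93 in Pcsk1-expressing tumours. Chl1 was thus highest in the same pair of Pcsk1-low tumours as Glra2.

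Among 19 genes of amine synthesis and transport, 0 passed and 2 had an unadjusted p under 0.05, against 5.23% of all genes. Both were higher, and the median difference of the list was -0.13. Maob, a monoamine oxidase of the outer mitochondrial membrane, was 7.95 in P235, 8.80 in P237, 8.22 in P311, 7.74 in P509 and 8.29 in P1394 (all Pcsk1-low), against a lowest, median and highest value of 5.53, 6.57 and 8.69 in Pcsk1-expressing tumours, a difference of 1.46 ± 0.45 (adjusted p = 0.915). All 5 Pcsk1-low tumours were above the Pcsk1-expressing median. Th, the first enzyme of catecholamine synthesis, was 5.59 to 7.63 in Pcsk1-low and 5.65 to 9.91 in Pcsk1-expressing tumours. Gad2, which makes GABA from glutamate, was 5.64 in P235, 9.19 in P237, 5.59 in P311, 10.98 in P509 and 9.80 in P1394 (all Pcsk1-low) and 5.29 to 10.46 in Pcsk1-expressing tumours.

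Of 28 genes of cyclic AMP signalling and CREB targets, 0 passed and 1 (higher) had an unadjusted p under 0.05, against 5.23% of all genes. Their median difference was 0.01. Pde4b, a cyclic AMP phosphodiesterase, was 8.22 in P235, 8.06 in P237, 5.75 in P311, 5.03 in P509 and 6.74 in P1394 (all Pcsk1-low) and 5.76 to 8.41 in Pcsk1-expressing tumours. Adcy2, an adenylyl cyclase, was 7.45 in P235, 8.31 in P237, 5.76 in P311, 8.40 in P509 and 7.16 in P1394 (all Pcsk1-low) and 7.22 to 8.64 in Pcsk1-expressing tumours. Creb1, chosen after its values were seen, was 9.70 to 10.26 in Pcsk1-low and 9.50 to 10.33 in Pcsk1-expressing tumours. Pde8b, another phosphodiesterase, was 7.85 to 8.40 in Pcsk1-low and 6.96 to 8.27 in Pcsk1-expressing tumours, a difference of 0.37 ± 0.17. Over the 389 tested genes whose upstream 250 bases held the full cAMP response element, as those of Pcsk1 and Scg2 do, 24 higher and 5 lower had an unadjusted p under 0.05 (7.46%), with a median difference of 0.04. Over the 16987 tested genes with such a window the share was 5.29% and the median 0.02. Of 20 Notch pathway genes, 0 passed, and 1 higher and 1 lower had an unadjusted p under 0.05, against 5.23% of all genes. Their median difference was -0.16. Notch2 was 5.91 to 7.27 in Pcsk1-low and 6.25 to 8.70 in Pcsk1-expressing tumours, and Lfng, which modifies Notch receptors, was 7.86 to 8.30 in Pcsk1-low and 7.22 to 8.09 in Pcsk1-expressing tumours.

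Dbp, Nr1d1 and Arntl were among the 15 genes of smallest p toward Pcsk1-low tumours, and all 3 belong to the circadian clock. In the clock, the Arntl and Clock proteins drive transcription of Nr1d1, Dbp, Per and Cry genes, whose products feed back on it. The other clock genes were looked at after these 3 had been seen, so the list is described without a test. Arntl was 8.09 in P235, 7.83 in P237, 8.02 in P311, 7.99 in P509 and 7.99 in P1394 (all Pcsk1-low), against a lowest, median and highest value of 6.44, 7.26 and 8.08 in Pcsk1-expressing tumours, a difference of 0.75 ± 0.18 (adjusted p = 0.545). All 5 Pcsk1-low tumours lay between 7.83 and 8.09, and 13 of 14 Pcsk1-expressing tumours were below them. Nr1d1, a repressor of Arntl, was 9.11 in P235, 8.59 in P237, 9.28 in P311, 9.48 in P509 and 9.83 in P1394 (all Pcsk1-low), against a lowest, median and highest value of 7.71, 8.47 and 8.92 in Pcsk1-expressing tumours, a difference of 0.84 ± 0.19 (adjusted p = 0.529). Dbp, a transcription factor whose level swings widely over the day, was 8.43 in P235, 8.30 in P237, 8.14 in P311, 8.76 in P509 and 8.74 in P1394 (all Pcsk1-low), against a lowest, median and highest value of 7.33, 7.68 and 8.59 in Pcsk1-expressing tumours, a difference of 0.72 ± 0.16 (adjusted p = 0.529).

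Of 20 clock genes measured, among them the 3 that prompted the list, 17 had a difference above 0, against 53.4% of all genes, and the median was 0.37, against 0.01. Rorb, an orphan receptor of the ROR family, was 10.96 in P235, 9.41 in P237, 9.91 in P311, 10.39 in P509 and 11.15 in P1394 (all Pcsk1-low) and 7.68 to 10.10 in Pcsk1-expressing tumours. Hlf, a relative of Dbp, was 8.81 to 9.43 in Pcsk1-low and 7.01 to 9.21 in Pcsk1-expressing tumours, and Bhlhe41, a repressor, was 7.28 to 8.50 in Pcsk1-low and 5.54 to 7.99 in Pcsk1-expressing tumours. Clock itself was 10.46 to 10.84 in Pcsk1-low and 9.58 to 10.65 in Pcsk1-expressing tumours. Among genes that the same factors drive, Per1 was 7.36 to 8.27 in Pcsk1-low and 7.24 to 8.61 in Pcsk1-expressing tumours, Cry1 was 7.06 to 7.54 in Pcsk1-low and 7.03 to 7.68 in Pcsk1-expressing tumours and Cry2 was 7.63 to 8.25 in Pcsk1-low and 7.31 to 8.20 in Pcsk1-expressing tumours. The summed level of the list was 0.07 to 0.57 in Pcsk1-low and -0.38 to 0.14 in Pcsk1-expressing tumours. The sources used here do not state the time of day at which tumours were taken.

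**Figure D4:**
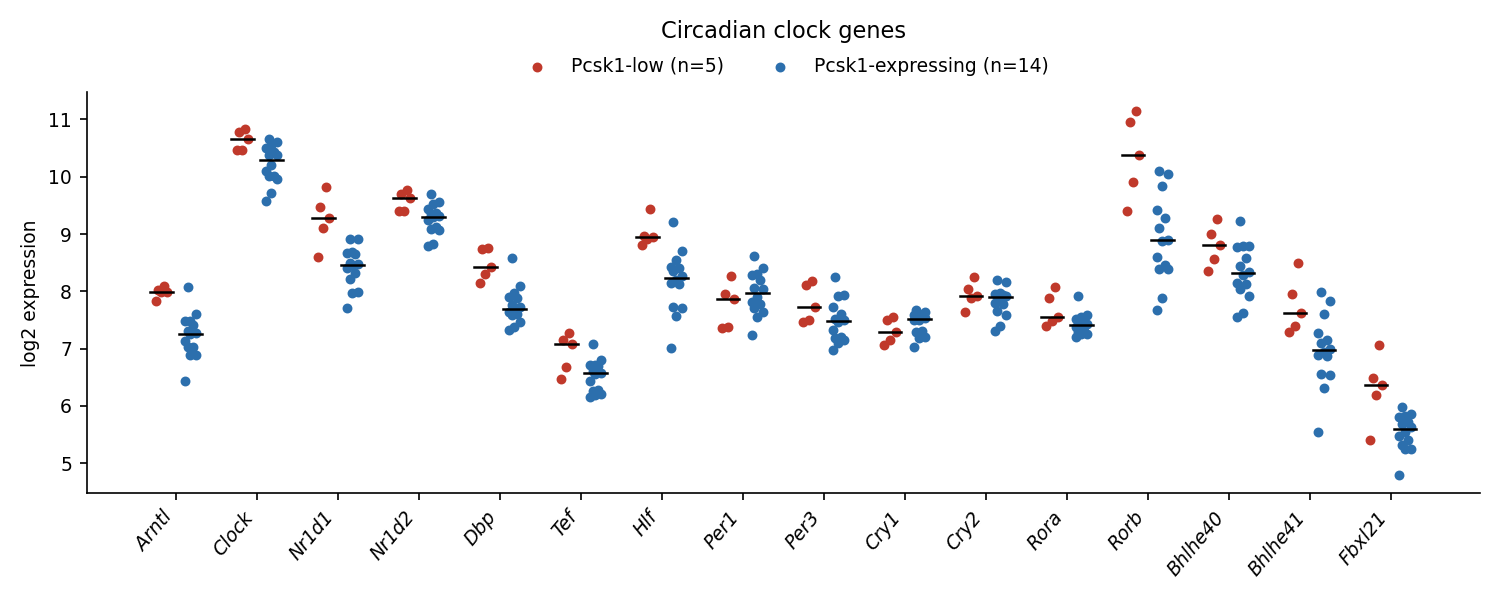
Log2 expression (y axis) of 16 circadian clock genes (x axis) in the 5 Pcsk1-low tumours (red, left) and the 14 Pcsk1-expressing tumours (blue, right). Points are tumours and black bars are medians. Arntl, Nr1d1, Dbp, Hlf and Rorb have Pcsk1-low medians above the Pcsk1-expressing ones, while Per1 and Cry1 have them below.

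The lists of other cell types had 0 members past the test and 0 with an unadjusted p under 0.05 in luminal epithelium, secretory prostate genes, basal epithelium, fibroblasts, smooth muscle, skeletal muscle, endothelium, macrophages, T and NK cells, B and plasma cells, adipose tissue and Schwann cells. Over all genes, 5.23% had an unadjusted p under 0.05. The luminal list of 14 genes had 1 difference above 0, against 53.4% of all genes, and 13 below 0. Its median was -0.40, and its summed level was -0.57 to 0.17 in Pcsk1-low and -0.70 to 2.37 in Pcsk1-expressing tumours, with P219 highest. The 14 androgen-responsive and secretory genes had a median of -0.55 and a summed level of -0.72 to 0.17 in Pcsk1-low and -0.65 to 2.68 in Pcsk1-expressing tumours. Mme, the neutral endopeptidase neprilysin, was 7.39 in P235, 4.21 in P237, 5.12 in P311, 4.78 in P509 and 4.93 in P1394 (all Pcsk1-low), against a lowest, median and highest value of 4.16, 6.76 and 11.71 in Pcsk1-expressing tumours, a difference of -1.76 ± 1.03 (adjusted p = 0.915). Krt8 and Krt18, luminal keratins chosen after their values were seen, were 6.57 to 8.06 and 5.92 to 7.56 in Pcsk1-low and 6.63 to 10.48 and 5.92 to 10.13 in Pcsk1-expressing tumours.

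Among the Pcsk1-low tumours, P235 had the highest levels of stromal and immune genes. The 13 fibroblast and matrix genes had a median difference of -0.40 and a summed level of -1.05 to 0.91 in Pcsk1-low and -0.45 to 0.89 in Pcsk1-expressing tumours. Dcn, decorin, was 10.92 in P235, 6.72 in P237, 9.07 in P311, 7.69 in P509 and 7.49 in P1394 (all Pcsk1-low) and 7.70 to 11.25 in Pcsk1-expressing tumours. Smooth muscle genes gave a median of -0.42 with 9 of 9 differences below 0, while 53.4% of all genes had one above 0. Acta2, smooth muscle actin, was 10.49 in P235, 9.07 in P237, 9.27 in P311, 7.62 in P509 and 7.60 in P1394 (all Pcsk1-low) and 8.52 to 11.57 in Pcsk1-expressing tumours. Endothelial genes gave a median of -0.17 with 9 of 9 below 0, beside the same 53.4% above 0 over all genes. Interferon response genes had a summed level of -0.86 to 1.704 in Pcsk1-low and -0.70 to 1.84 in Pcsk1-expressing tumours, with P235 the highest of the Pcsk1-low and P219 the highest of the Pcsk1-expressing tumours. P235 was the highest Pcsk1-low tumour in the fibroblast, smooth muscle, endothelium, macrophage, T cell, B cell, adipose and interferon lists. With fibroblast, smooth muscle, macrophage and endothelium levels as covariates in limma, 0 genes passed in either direction, and the smallest adjusted p was 0.110. Of all 261 genes named, 40 changed sign in that fit. The part of these cells in each difference was not itself tested.

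No gene of the proliferation lists passed the test. Of 17 mitosis genes 0 passed and the median difference was 0.04, with a summed level of -0.05 to 0.24 in Pcsk1-low and -0.49 to 0.37 in Pcsk1-expressing tumours. Ccnb2, cyclin B2, was 10.02 in P235, 10.84 in P237, 10.20 in P311, 11.01 in P509 and 9.37 in P1394 (all Pcsk1-low) and 10.35 to 11.004 in Pcsk1-expressing tumours, a difference of -0.45 ± 0.18 (adjusted p = 0.915). Of 19 replication and E2F target genes 0 passed and the median was 0.08. Rb1, the retinoblastoma gene whose protein SV40 large T antigen binds, was 10.35 to 10.69 in Pcsk1-low and 9.95 to 10.79 in Pcsk1-expressing tumours. Mki67, a proliferation marker chosen after its values were seen, was 11.14 to 11.40 in Pcsk1-low and 10.98 to 11.57 in Pcsk1-expressing tumours, with a 95% interval of -0.18 to 0.22 for the difference. Of 11 hypoxia and glycolysis genes 10 had a difference above 0, against 53.4% of all genes, with a median of 0.07.

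The genes next to Pcsk1 on chromosome 13 were compared because F2 animals differ in genotype by region. Of the 10 measured neighbours on each side, 0 passed, and 1 of the 20 (Rhobtb3) had an unadjusted p under 0.05, against 5.23% of all genes. Rhobtb3 was 9.44 in P235, 9.39 in P237, 9.73 in P311, 9.48 in P509 and 9.33 in P1394 (all Pcsk1-low), against a lowest, median and highest value of 8.73, 9.06 and 9.65 in Pcsk1-expressing tumours, a difference of 0.39 ± 0.13 (adjusted p = 0.915). On the other side of Pcsk1, Cast, which encodes the calpain inhibitor calpastatin, was 8.84 in P235, 5.99 in P237, 7.92 in P311, 6.27 in P509 and 6.72 in P1394 (all Pcsk1-low) and 6.69 to 9.15 in Pcsk1-expressing tumours. Its neighbour Erap1, an aminopeptidase that trims peptides for class I molecules, was 6.73 in P235, 5.08 in P237, 6.60 in P311, 5.50 in P509 and 5.75 in P1394 (all Pcsk1-low) and 5.06 to 7.79 in Pcsk1-expressing tumours. Ell2, an elongation factor gene beside Pcsk1, was 9.11 to 9.66 in Pcsk1-low and 9.05 to 9.97 in Pcsk1-expressing tumours. Mctp1, a calcium-binding membrane protein gene, stood apart in P235, with 7.30 in P235, 4.45 in P237, 5.03 in P311, 5.04 in P509 and 4.85 in P1394 (all Pcsk1-low) and 4.44 to 5.50 in Pcsk1-expressing tumours. The differences of the 20 neighbours were between -0.45 and 0.47 log2 units, the extremes being Cast and Zfp72.

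By chromosome, the share of genes with an unadjusted p under 0.05 was highest on chromosome 1, at 10.3% (113 higher and 14 lower of 1234), on chromosome 15, at 8.52% (62 higher and 10 lower of 845), and on chromosome 8, at 6.74% (56 higher and 14 lower of 1039), against 5.23% over all genes. The chromosome medians per tumour, each gene centred on its mean over the 19 tumours, did not separate the groups. On chromosome 1 they were 0.14 in P235, -0.04 in P237, 0.07 in P311, -0.06 in P509 and 0.10 in P1394, against -0.08 to 0.11 in Pcsk1-expressing tumours. Thus 3 Pcsk1-low tumours and P1218, a Pcsk1-expressing tumour with 0.11, were high. Esrrg, on chromosome 1, was highest in the same tumours, with 8.81 in P235, 8.71 in P311, 8.52 in P1394 and 8.45 in P1218. Syt2, also on chromosome 1, was highest in P1394 (8.70) and P235 (8.42), but P311 (7.90) was its lowest Pcsk1-low tumour. The part of the chromosome level in these differences was not tested. On chromosome 15 the medians were -0.08 in P235, -0.04 in P237, 0.08 in P311, 0.09 in P509 and 0.11 in P1394, against -0.09 to 0.03 in Pcsk1-expressing tumours. P311 had similar medians on many other chromosomes, such as 0.09 on chromosome 4, 0.10 on chromosome 5 and 0.09 on chromosome 7. Its values on chromosomes 1 and 15 were therefore not particular to them. On chromosome 8 P311 alone had 0.27, and the other Pcsk1-low tumours lay between -0.10 and 0.04. Chromosome 13, which holds Pcsk1, had 4.51% of its 864 genes at an unadjusted p under 0.05.

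**Figure D5:**
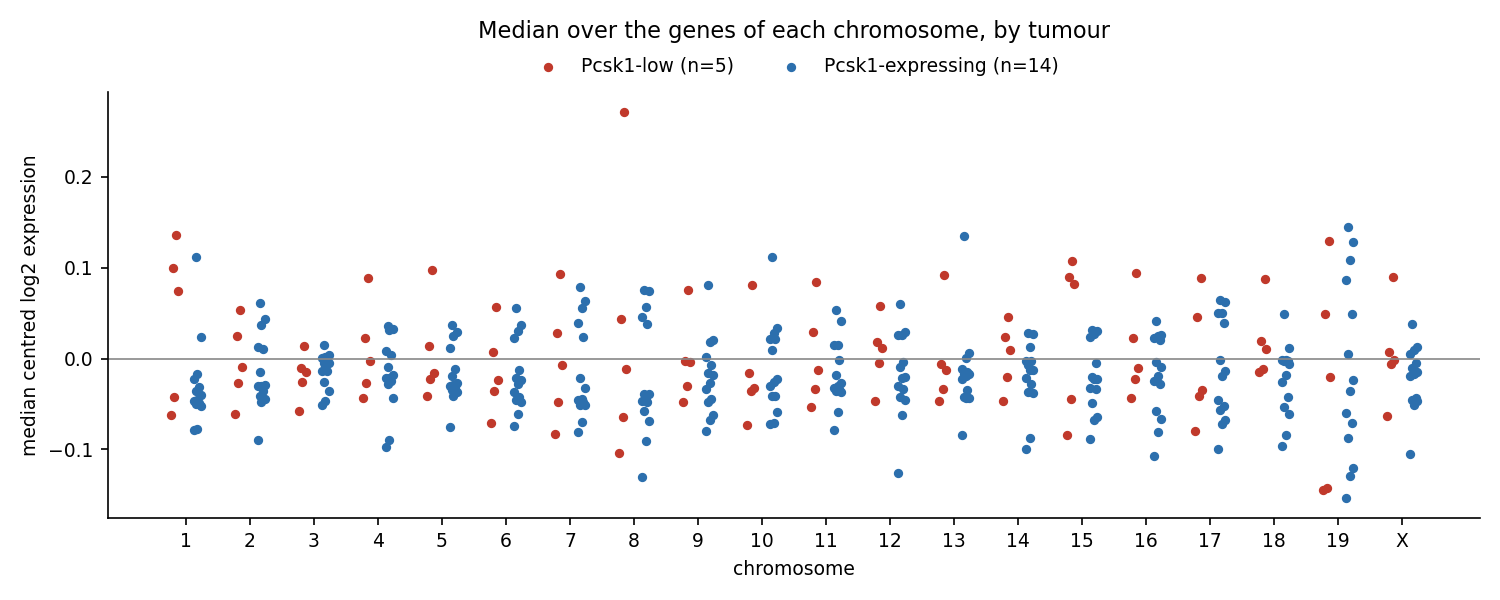
Median over the genes of each chromosome of the log2 expression centred on the 19 tumours (y axis), by chromosome (x axis), in the 5 Pcsk1-low tumours (red, left) and the 14 Pcsk1-expressing tumours (blue, right). Points are tumours. P311 stands apart on chromosome 8 at 0.27, while on chromosome 15 P311, P509 and P1394 are above every Pcsk1-expressing tumour and on chromosome 1 P235, P311, P1394 and P1218 are high. Many other chromosomes have P311 at a level like that on chromosomes 1 and 15.

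The 8 tumours outside the split had Pcsk1 levels of 5.09 to 6.61 or of 11.06 to 12.08, and none lay within the Pcsk1-expressing range. P803, P1469 and P569, the tumours with high Pkd1l3, had Pcsk1 levels of 12.08, 11.06 and 11.59, above every Pcsk1-expressing tumour, with Chga at 11.55, 11.33 and 10.89. P966, P471, P425 and P1276, with Syp below 6.5, had Pcsk1 levels of 5.22, 5.09, 6.15 and 6.55. Those of P966 and P471 lay within the Pcsk1-low range, and those of P425 and P1276 lay above it. Chga in P966, P471, P425 and P1276 was 7.19, 5.91, 7.31 and 7.57, lower than in any Pcsk1-low tumour. P1225, with Pcsk1 at 6.61, had Rorb at 11.11, Nr1d1 at 10.09 and Csmd3 at 8.26, and its Arntl was 8.24. Its Nr1d1 and Arntl were above all 5 Pcsk1-low values, its Rorb was below the highest of them and its Csmd3 was below all 5. Counting P1225 with the Pcsk1-low tumours again gave 0 genes past the test in either direction, with a smallest adjusted p of 0.364.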

How the data were processed

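Labelled RNA of 27 tumours was measured on 1-colour arrays. The authors deposited log2 expression values (41345 rows, 1.68 to 14.5); per the submitters' processing notes they used Partek, and the sources used here do not state the background correction, summarisation or normalization. Array medians were 5.67 to 5.82, and the values were used as deposited. Arrays hold no read depth, and their number limits the precision.

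Rows with 1 gene symbol (23521) were kept. For 1082 genes with several rows the row with the highest mean was taken, giving 22180 genes. 22139 symbols matched the RefSeq table (GRCm38.p6), which gave gene order and upstream sequences.

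The labels give 1 group; the split was computed from Syp, Pkd1l3 and Pcsk1, which were left out of the tests. Differences (Pcsk1-low minus Pcsk1-expressing, log2) were fitted with limma 3.58.1 in R 4.3.3 (lmFit, eBayes with trend), and p-values were adjusted by Benjamini-Hochberg. The script was tested on simulated data. A list's summed level is the mean over its genes of the log2 value minus the gene's mean over the 19 tumours.

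Named genes are the 15 of smallest p per direction (none passed; symbols such as Rik, Gm and LOC were left out), up to 4 members per list with the largest difference, and 10 measured neighbours on each side of Pcsk1. The members and the 33 gene lists were chosen with earlier results of these data known, and the clock, Hox and GABA lists after the differences were seen. Alternatives covered normalization, filters, rows per gene, thresholds, covariates and each tumour left out.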

Additional observations from a re-analysis of the deposited data

Results flagged for a closer look

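Among the 265 genes examined, 21 (7.92%) had 1 of the 5 Pcsk1-low tumours far from the other 4. The measure was the gap to the nearest tumour relative to the whole range. Chance alone sets apart about 5% of such groups, but the 7.92% cannot be judged against that rate. The genes included Pcsk1, which made the groups, and genes chosen for a small p or a large difference. Many of those set apart were also high together in P235. The values are therefore a description. P235 stood apart most often. It was highest for Mctp1 (7.30, nearest 5.04), Nts (4.39, nearest 3.57), Pou4f1 (9.26, nearest 6.48), Hlf (9.43, nearest 8.97) and the secretory prostate genes Mme (7.39, nearest 5.12), Msmb (8.13, nearest 4.56) and Defb50 (5.15, nearest 3.45). It was also highest for muscle genes Des (8.53, nearest 6.53) and Ttn (6.27, nearest 4.91), the endothelial receptor gene Tek (7.002, nearest 5.81), the T cell genes Cd4 (6.24, nearest 5.38) and Cd3g (6.69, nearest 4.80), the fat droplet gene Cidec (7.16, nearest 5.70) and the interferon-induced Oas1g (8.29, nearest 4.70). Chga was lowest in P235 (9.69, nearest 10.19).

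P509 was highest for Gal (7.48, nearest 5.83) and lowest for Krt14 (4.60, nearest 5.15) and Creb1 (9.70, nearest 10.15). P1394 was highest for Tph1, the enzyme that starts serotonin synthesis (9.36, nearest 5.70), and lowest for Ddc, the decarboxylase of the same pathway (8.22, nearest 9.54). P1394 was also highest for Pcsk1 (5.89, nearest 5.24), the tumour closest to the threshold. Chga, Creb1 and Ddc were examined after their values were seen.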

How the results depend on the processing

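The counts of 0 genes higher and 0 lower held under each alternative with 1 exception: without P235, 1 gene was higher (Adam25, difference 0.59, adjusted p = 0.0348), so leaving out single tumours gave 0 to 1 higher and 0 lower genes. The alternatives were eBayes without the trend or robust, quantile normalization, median centring, a filter on dim genes, other rows per gene, both placements of P1225, Pcsk1 as a slope, inclusion of high-Pkd1l3 tumours, the composition, mitosis, luminal and animal number covariates, leaving out P219 and P268, and stricter thresholds. Adam25 lies below the median level of all rows. Genes at an unadjusted p under 0.05 numbered 744 (3.35%) without P311, 871 without P1394, 952 under quantile normalization, 1419 without P235 and 1431 (6.45%) with Pcsk1 as a slope over 20 tumours, where the smallest adjusted p was 0.369. The 30 genes chosen for their small p kept their direction wherever they were tested in 34 alternatives, with 17 of them tested among genes above the median level. They were chosen in the same tumours that the alternatives refit, so a kept direction was largely set by the choice and is no support. Of all 261 genes named, 40 changed sign with the stromal covariates, 22 with Pcsk1 as a slope, 20 without P219 and P268 and 19 with the luminal covariate. Median centring moved the median difference of all genes to 0.04 and quantile normalization to 0.00, against 0.01. No paired analysis was possible because the labels give a single group and no replicate numbers. The small number of Pcsk1-low tumours limits the precision of every difference.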

Other observations

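Further gene groups were looked at because members had large differences, so their values are given without a test. Posterior Hox genes, which carry the positional identity of the hind body, had their largest differences in the A and D clusters, toward Pcsk1-expressing tumours. Hoxa10 was 5.04 in P235, 4.52 in P237, 5.35 in P311, 4.98 in P509 and 5.25 in P1394, against a lowest, median and highest value of 4.75, 6.80 and 8.52 in Pcsk1-expressing tumours. The Pcsk1-expressing tumours P503 (5.10), P609 (5.03), P757 (5.001), P902 (4.75) and P1218 (5.15) lay within the Pcsk1-low range, so a low Hoxa10 was not particular to Pcsk1-low tumours. Hoxd10 was 5.44 to 6.58 in Pcsk1-low and 6.07 to 9.86 in Pcsk1-expressing tumours, and Hoxd11 was 4.91 to 5.75 in Pcsk1-low and 4.99 to 9.60 in Pcsk1-expressing tumours. Hoxd9 of the same cluster was not lower in Pcsk1-low tumours, with 5.02 to 6.79 against 4.63 to 6.76 in Pcsk1-expressing tumours. Hoxb13, the prostate member, was 8.53 to 9.31 in Pcsk1-low and 7.22 to 9.25 in Pcsk1-expressing tumours. Of 15 Hox genes measured 5 had a difference above 0, against 53.4% of all genes, and 10 had one below 0, with a median of -0.16.

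Genes of GABA and glycine transport, synthesis and breakdown were mixed, with 2 of 5 transporters above 0. Slc6a5, the neuronal glycine transporter, was 6.81 in P235, 8.22 in P237, 7.96 in P311, 8.76 in P509 and 7.48 in P1394, against 5.38, 6.38 and 7.68 as the lowest, median and highest value in Pcsk1-expressing tumours. Slc6a11, a GABA transporter, was 9.21 to 10.98 in Pcsk1-low and 6.56 to 10.31 in Pcsk1-expressing tumours. Abat, the GABA transaminase, was 7.63 to 8.12 in Pcsk1-low and 6.81 to 7.84 in Pcsk1-expressing tumours. Slc32a1, the vesicular transporter of both, was 5.26 to 7.25 in Pcsk1-low and 5.56 to 7.67 in Pcsk1-expressing tumours. Slc6a12 and Slc6a13, other GABA transporters, were 5.39 to 5.89 and 5.13 to 5.45 in Pcsk1-low and 5.36 to 8.55 and 4.85 to 5.86 in Pcsk1-expressing tumours. The 11 genes measured include the enzymes Gad1, Gad2, Aldh5a1 and Maob and the receptor subunit Glrb. Of these 11, 8 had a difference above 0, against 53.4% of all genes, with a median of 0.35.

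With Pcsk1 as a slope over 20 tumours, Syt4 was 0.86 log2 units higher per log2 unit of Pcsk1 (adjusted p = 0.369 by limma), and Esrrg had a slope of -0.26 (adjusted p = 0.369).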
